A study of Musa acuminata AAA Group with 4 samples.

Results

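Receptor-like kinases are the largest class of cell-surface sensors in plants. Most carry an outer domain that reads the wall, a sugar, a peptide or a microbial molecule, a membrane span, and a kinase that passes the signal into the cell. Some lack the outer domain and work beside other receptors, and some have a kinase domain thought to be inactive. The genes described here are those in the authors' deposited tables of changed genes, for leaf or for root, whose database match names a kinase together with "receptor" or "wall-associated" but not a leucine-rich repeat, or LRR. This rule found 125 genes among the 5520 listed in either tissue, with 38 in leaf, 95 in root and 8 in both.

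The plants were seedlings of Cavendish banana (Musa acuminata AAA Group), a triploid dessert banana. They were kept for 60 days in complete Hoagland nutrient solution, the normal-potassium group, or in a solution low in potassium, and leaves and roots were sequenced. Each tissue and supply has a single library, 4 samples in all, and the labels do not say whether a sample pooled several plants. Between 4203924 and 4555000 fragments per library were assigned to genes, as recovered from the deposited values.

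The series asks how leaf and root transcripts differ when potassium is short. Levels are in FPKM, the fragment count scaled to gene length and library total, and where a gene is "at" a pair of levels the first is from normal and the second from low potassium. Higher and lower mean higher or lower in low potassium, for a gene that the authors listed. Their deposited tables hold genes past an FDR of 0.001 and a log2 ratio of 1 in size. Each fold is the ratio of 2 FPKM values with a 95% interval from the counts, so it compares 2 libraries, has no replicate check and carries no p-value. The intervals cover counting error only.

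The name of the group fits most but not all of its genes. In at least 32 of the 125 the match is to a family known to carry leucine-rich repeats although the text does not say so, such as TMK1, HSL1, the BRI1-associated kinases and the inactive kinases At1g48480 and At5g67200. These names were picked out after the values had been seen, and the remaining genes may hold more. In the deposited KEGG annotation, 31 members in leaf and 77 in root came first under IRAK1 or IRAK4, animal kinases whose kinase domain is related to that of the plant family. No gene shared the accession of its database match with another member in the same tissue, although many matches carry the same name. Members were long, with a median coding length of 2228 bases in leaf and 2037 in root, against 1227 and 1137 for all listed genes. They were also weakly expressed, with a median over genes of the mean FPKM of 3.08 in leaf and 8.22 in root, against 15.5 and 18.7.

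In low-potassium leaf, receptor-like kinases were mostly lower while listed genes in general were mostly higher. Of the 38 members 28 were lower and 10 higher, so 73.7% were lower, against 32.6% of the 1183 genes in the leaf table. The median log2 ratio was -2.22 for the members and 1.32 for all listed genes. After adding 1 to each FPKM these medians were -1.43 and 1.23. Higher calls made up 67.4% of the leaf table and 26.3% of the leaf members. Kinases with LRR in the name had 34 lower and 6 higher. The leaf direction rests on genes whose estimated counts are not whole numbers. With whole counts only, 6 members were lower and 8 higher, with a median log2 ratio of 1.04. Without genes under the table's median FPKM, 3 were lower and 1 higher.

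In root the members were split, with 52 lower and 43 higher. That is 54.7% lower, close to the 59.6% of the 4747 genes in the root table, and the median log2 ratio was -1.07 against -1.20. The LRR-named kinases of root had 54 lower and 25 higher. Without genes under the table's median FPKM the root median was 1.16, from 7 lower and 11 higher members. With whole counts only it was 1.06, from 27 lower and 29 higher. Every listed gene has a log2 ratio of at least 1 in size, so these root medians mostly show which direction holds more genes.

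Large ratios among the leaf members were mostly on the lower side. A log2 ratio of -2 or less was found in 21 of the 38 leaf members, against 99 of the 1183 listed leaf genes (8.37%). One of 2 or more was found in 3 of the 38, against 313 of the 1183 (26.5%). In root the lower count was 21 of 95 members, against 1159 of 4747 listed genes (24.4%). The higher count was 11 of 95, against 692 of 4747 (14.6%). After adding 1 to each FPKM, 26 of the 38 leaf members were at -1 or below, against 344 of 1183 listed genes (29.1%). At 1 or above were 8 of the 38, against 763 of 1183 (64.5%). The same counts in root were 48 of 95 members against 2692 of 4747 listed genes (56.7%), and 38 of 95 against 1818 of 4747 (38.3%).

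**Figure D1:**
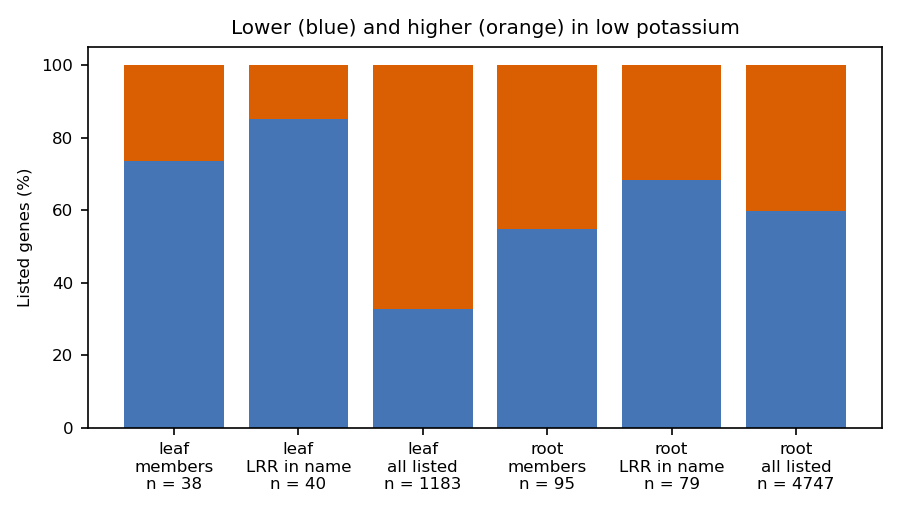
Share of listed genes that were lower (blue) or higher (orange) in low potassium, in percent, for the members, for receptor-like kinases with LRR in the name and for all genes in the authors' table of each tissue. In leaf 73.7% of members were lower against 32.6% of all listed genes, and in root 54.7% against 59.6%.

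Root members were also counted by families picked after the values had been seen, and the difference between the counts was not tested. The 27 root members of families known to carry leucine-rich repeats had 22 lower and 5 higher, with a median log2 ratio of -1.49. The other 68 had 30 lower and 38 higher, with a median of 1.10. Of all listed root genes 59.6% were lower. In leaf these families had 4 lower and 4 higher, and the other 30 members had 24 lower and 6 higher. Of all listed leaf genes 32.6% were lower.

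**Figure D2:**
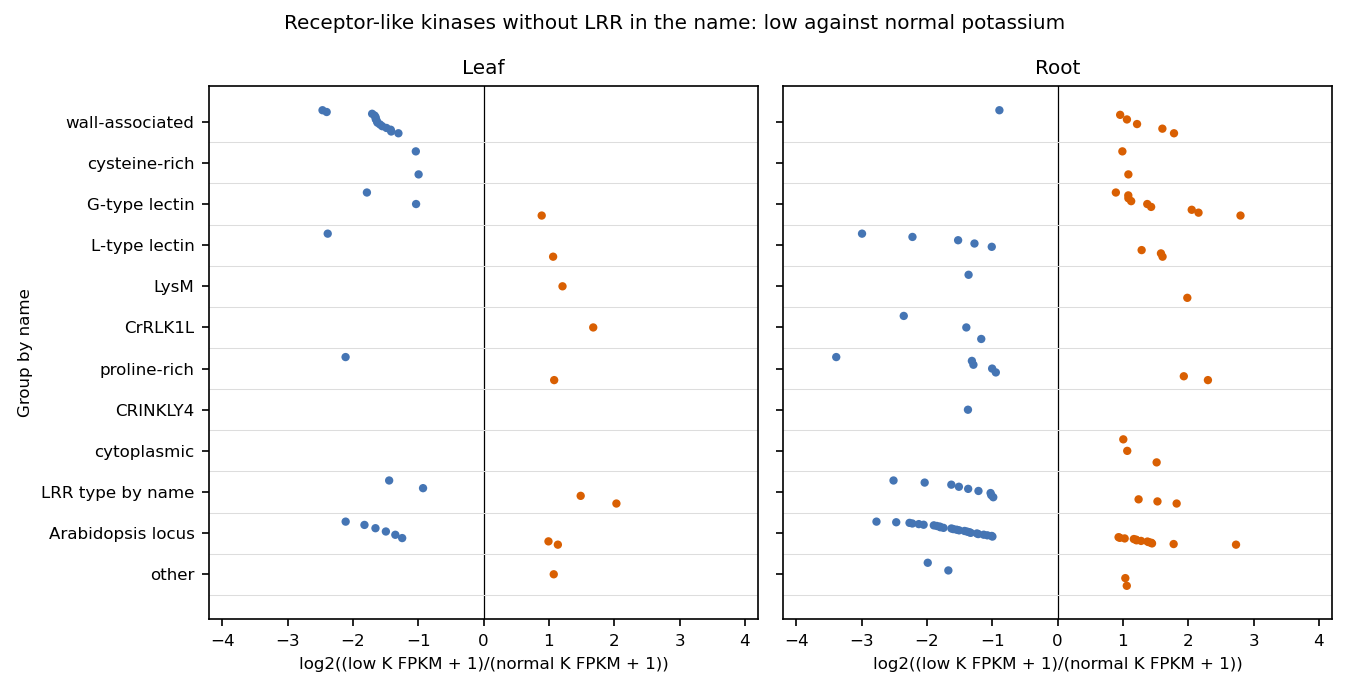
Change of every member by group, in leaf (left) and root (right). The horizontal axis is the log2 ratio of low over normal potassium FPKM after adding 1 to each, each point is 1 gene, blue is lower and orange higher, and groups are by the words of the gene name. All 14 wall-associated kinases of leaf lie left of 0, while all 9 G-type lectin kinases of root lie right of it. Of all listed genes 32.6% were lower in leaf and 40.4% were higher in root.

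Wall-associated receptor kinases span from the cell wall to the cytoplasm, and those of Arabidopsis bind pectin. All 14 listed in leaf were lower in low potassium, against 32.6% of all listed leaf genes. Their levels were between 1.80 and 14.2 FPKM in normal potassium and between 0 and 1.76 FPKM in low potassium. Each gene was listed because its own 2 values differ, so the lack of overlap between these ranges is not a separate result. Together they held 384.62 and 34.57 fragments, 10.9-fold lower as a sum scaled to library totals (interval 7.60 to 15.7).

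In 6 of the 14 no fragment was counted in low-potassium leaf. With the low-potassium library set to a floor of 3 counts, they were at least 4.63-fold to 8.18-fold lower, with the normal-potassium counts taken as exact. The other 8 were between 4.13-fold and 23.9-fold lower. The most abundant was wall-associated receptor kinase-like 2 (Ma02_g13010), at 14.2 and 1.76 FPKM, 8.09-fold lower (interval 3.20 to 26.2). Ma04_g36330, matched to a partial kinase-like 2 protein, was at 4.28 FPKM and then at 0, at least 7.17-fold lower. The counts of 13 of the 14 were not whole numbers, as happens where fragments are shared between similar copies, so the values of single copies are uncertain. The exception, Ma09_g18370, had 20 fragments in normal potassium and 0 in low potassium, at least 6.52-fold lower. It was named for that exception after its values were seen.

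In root 5 of the 6 listed wall-associated kinases were higher, between 2.13-fold and 4.82-fold, and 1 was lower. Of all listed root genes 40.4% were higher. Summed over the 6 genes, the fragments were 2.05-fold higher in low potassium (interval 1.75 to 2.40). The most abundant higher gene, kinase-like 16 (Ma01_g04500), was at 4.89 and 11.3 FPKM in root, 2.31-fold higher (interval 1.64 to 3.30). The lower gene, another kinase-like 16 (Ma06_g16790), was at 8.16 and 3.94 FPKM, 2.07-fold lower (interval 1.39 to 3.14). The gene Ma01_g04500 is the only wall-associated kinase listed in both tissues. Whether the groups of leaf and root differ was not tested, since each tissue has 1 library per potassium supply.

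**Figure D3:**
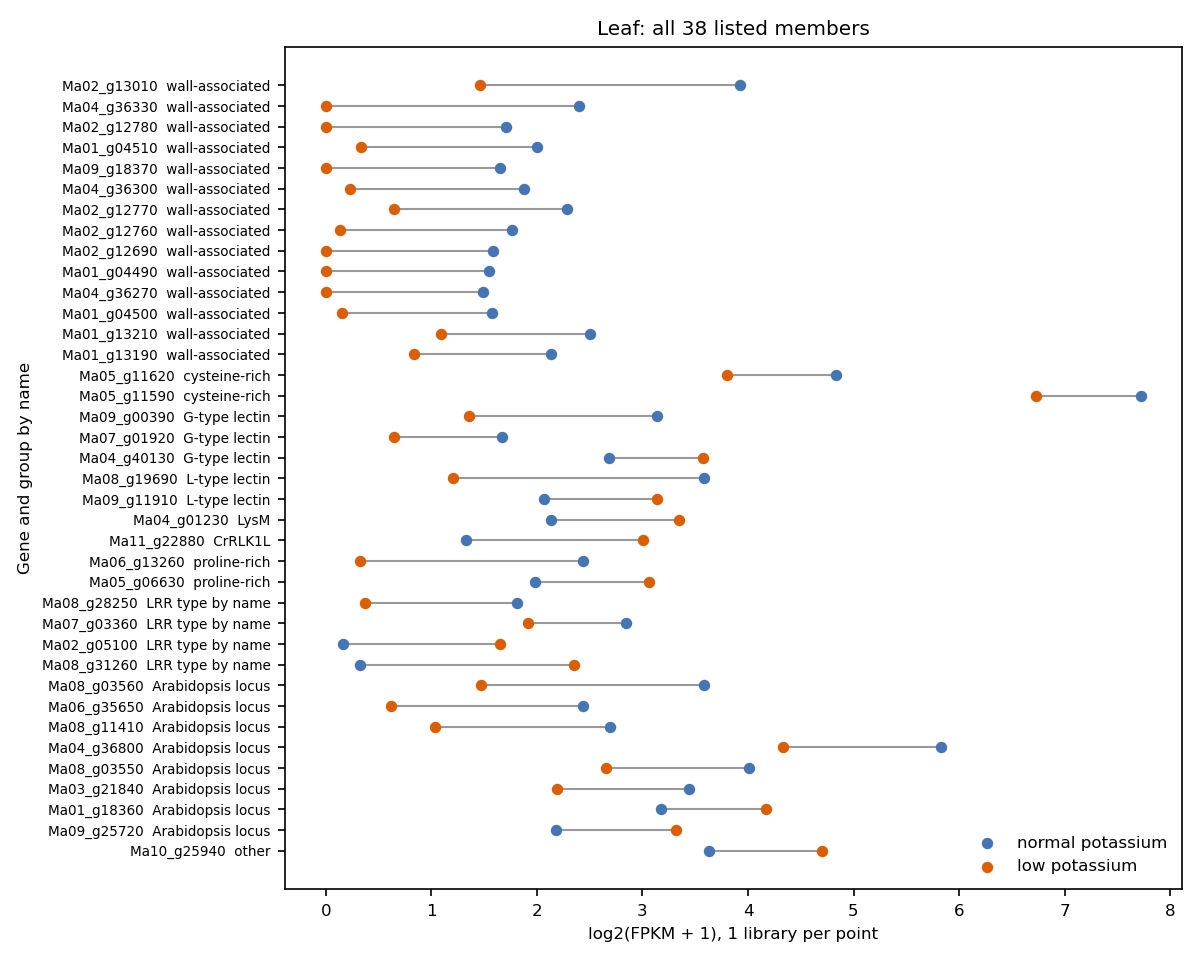
Levels of all 38 leaf members in normal (blue) and low (orange) potassium on a log2(FPKM + 1) axis, 1 library per point, with genes grouped by name. In 6 wall-associated kinases the low-potassium point is at 0, and the cysteine-rich kinase Ma05_g11590 lies far to the right of the rest at 211 and 105 FPKM.

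Cysteine-rich receptor-like kinases have paired cysteine motifs outside the cell, and in Arabidopsis several act in oxidative and immune responses. Both genes listed in leaf are matched to cysteine-rich kinase 2 and both were lower, against 32.6% of all listed leaf genes. Ma05_g11590 was at 211 and 105 FPKM, 2.0-fold lower (interval 1.84 to 2.18), just past the authors' limit. This gene alone held 47.2% of all member fragments of leaf under normal supply and 38.9% under low supply. Ma05_g11620 was at 27.5 and 12.9 FPKM, 2.13-fold lower (interval 1.68 to 2.72). Neither gene has whole counts. In root the 2 listed cysteine-rich kinases are other genes and were higher, against 40.4% of all listed root genes. Whether the tissues differ was not tested. Putative kinase 35 (Ma07_g12410) was at 10.1 and 22.5 FPKM, 2.23-fold higher (interval 1.60 to 3.14), and Ma03_g27800, another match to kinase 2, was 2.19-fold higher.

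G-type lectin kinases carry an S-domain like that of the Brassica self-incompatibility receptor, and the SD1-29 kinase of Arabidopsis senses bacterial fatty acids. All 9 listed in root were higher in low potassium, between 2.04-fold and 8.23-fold, against 40.4% of all listed root genes. Their counts were whole in every library and gene. Summed over the 9 genes the fragments were 2.78-fold higher (interval 2.55 to 3.04). The most abundant, B120 (Ma04_g30340), was at 36.6 and 78.5 FPKM, 2.15-fold higher (interval 1.91 to 2.42).

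The largest ratio of the group belonged to At1g11330 (Ma03_g24160), at 4.71 and 38.8 FPKM, 8.23-fold higher (interval 5.36 to 13.2). The next identifier, the short gene Ma03_g24170 matched to At4g03230, was at 7.38 and 36.4 FPKM, 4.93-fold higher (interval 2.61 to 10.1). Ma02_g04890, matched to At2g19130, was at 6.29 and 29.3 FPKM, 4.65-fold higher (interval 3.58 to 6.12). Of the 3 G-type kinases listed in leaf, 1 was higher and 2 were lower, in a table where 32.6% of all listed genes were lower. One of the lower, Ma09_g00390, is also matched to At2g19130 and was 5.01-fold lower, while the higher is SD1-8 (Ma04_g40130). Ma09_g00390 was named for that shared match after its values were seen.

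L-type lectin kinases have an outer domain like the lectins of legume seeds. In root 5 of the 8 were lower and 3 higher, a split near that of the root table, in which 59.6% were lower. Summed over the 8 genes the fragments were 1.12-fold higher (interval 1.02 to 1.22). Kinase S.7 (Ma04_g09700) had the largest ratio among root members with fragments in both libraries, at 14.4 and 0.93 FPKM, 15.5-fold lower (interval 7.61 to 36.5). Kinase VIII.1 (Ma06_g34700) was at 20.9 and 3.70 FPKM, 5.65-fold lower (interval 3.96 to 8.29). The most abundant higher member, kinase IX.1 (Ma08_g03400), was at 20.3 and 62.7 FPKM, 3.09-fold higher (interval 2.55 to 3.77). Of the pair listed in leaf, 1 was higher and 1 lower. The lower one, a short gene matched to IX.1 (Ma08_g19690), was at 11 and 1.3 FPKM, 8.47-fold lower (interval 2.07 to 74.5 from 21.17 and 2.43 fragments).

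LysM kinases bind chitin and related sugars. In root, LysM kinase 4 (Ma02_g01210) was at 6.20 and 27.5 FPKM, 4.44-fold higher (interval 3.28 to 6.11). LysM kinase 3 (Ma02_g11210) was at 5.66 and 1.59 FPKM, 3.56-fold lower (interval 1.83 to 7.58). In leaf a different gene matched to kinase 4 (Ma04_g01230) was at 3.39 and 9.15 FPKM, 2.70-fold higher (interval 1.73 to 4.33).

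The FERONIA and THESEUS kinases have malectin-like domains, and in Arabidopsis they receive RALF peptides and watch over wall integrity and cell growth. All 3 genes so named in root were lower, in a table where 59.6% of all listed genes were lower. Summed over these 3 only, the fragments were 3.23-fold lower (interval 2.73 to 3.82). FERONIA (Ma03_g09530) was at 19.5 and 3.0 FPKM, 6.49-fold lower (interval 4.51 to 9.59). The more abundant THESEUS 1 gene (Ma08_g03750) was at 30.0 and 12.8 FPKM, 2.35-fold lower (interval 1.92 to 2.88), and the other (Ma09_g02840) was 4.08-fold lower. The counts of all 3 are not whole. A pair of genes matched to At1g30570, known in Arabidopsis as HERCULES 2 of the same family, was also lower in root, 5.40-fold for Ma07_g07940 and 3.46-fold for Ma07_g03560. Genes matched to At5g24010, a further member of that family in Arabidopsis, were higher and are described with the genes named by a locus. Both loci were looked at after the values had been seen, and neither is in the sum. The At5g24010 gene Ma11_g02710 alone had 790.46 and 1742.54 fragments in root, against 626.91 and 184.0 in the sum. The sum therefore holds for the 3 named genes and not for the family. In leaf a HERK 1 gene (Ma11_g22880), of the same family, was higher, at 1.51 and 7.04 FPKM, 4.66-fold (interval 2.69 to 8.58).

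Proline-rich PERK kinases have an outer domain like the wall protein extensin. In root 5 of the 7 were lower and 2 higher, in a table where 59.6% of all listed genes were lower. Summed over the 7 genes the fragments were 1.12-fold lower (interval 0.99 to 1.26), while the summed levels were 83.6 and 127 FPKM. PERK10 (Ma06_g13260) was at 9.47 FPKM in normal potassium and had no fragment in low potassium, at least 12.9-fold lower with its 41 fragments taken as exact. PERK1 (Ma10_g06880) was at 36.3 and 17.6 FPKM, 2.06-fold lower (interval 1.70 to 2.50). PERK2 (Ma06_g30970) was at 18.8 and 96.3 FPKM, 5.14-fold higher (interval 3.79 to 7.09). The database match of this last gene had an E-value of 6.6e-13, the weakest of all members, so its name is uncertain. Another PERK1 gene (Ma05_g06630) was higher in leaf, at 2.95 and 7.36 FPKM, 2.49-fold (interval 1.54 to 4.15).

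CRINKLY4 of maize and ALE2 of Arabidopsis act in the making of the epidermis. Both were lower in root, in a table where 59.6% of all listed genes were lower. CRINKLY4 (Ma08_g29430) was at 3.4 and 0.70 FPKM, 4.86-fold lower (interval 2.25 to 12), and ALE2 (Ma06_g06530) was 4.49-fold lower (interval 2.81 to 7.47). ALE2 falls outside the rule for named genes and was added after its value was seen. Receptor-like protein kinase 2 (Ma11_g02170) was at 19.6 and 4.2 FPKM in root, 4.67-fold lower (interval 3.55 to 6.23). The ZmPK1-like gene (Ma04_g15060), after an S-domain kinase of maize, was higher, at 7.02 and 15.7 FPKM, 2.24-fold (interval 1.69 to 2.98).

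The 3 root members with cytoplasmic or cytosolic in the name, a type that lacks an outer domain, were all higher, against 40.4% of all listed root genes. The most abundant was calmodulin-binding kinase 2 (Ma05_g10380), at 18.6 and 40.1 FPKM, 2.15-fold higher (interval 1.70 to 2.74). A gene matched to At5g47070 (Ma04_g36800), an Arabidopsis kinase of the cytoplasmic type known as PBL19, was lower in leaf. It was at 55.8 and 19.2 FPKM, 2.91-fold lower (interval 2.30 to 3.71). Another gene matched to that locus (Ma03_g15470) was 3.23-fold higher in root, and it was named for the shared match after its value was seen.

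**Figure D4:**
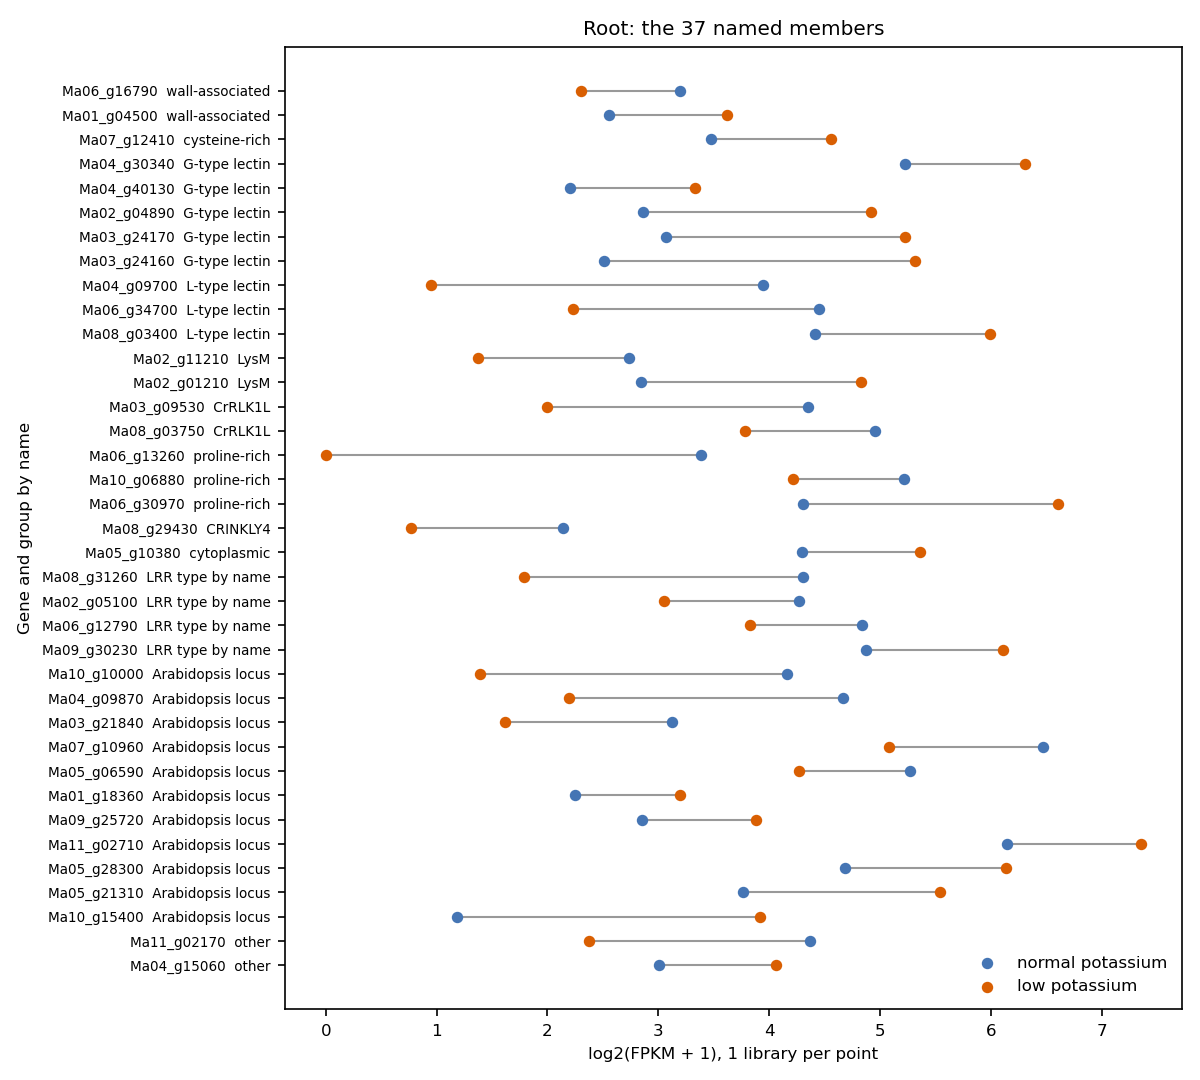
Levels of 37 root members in normal (blue) and low (orange) potassium on a log2(FPKM + 1) axis, 1 library per point. They are those listed in both tissues, the most abundant, those with the largest changes and the most abundant of each group in each direction. PERK10 (Ma06_g13260) is at 0 in low potassium, and Ma11_g02710 has the highest point at 163 FPKM.

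Kinases named as inactive formed a group of 17 in root, of which 14 were lower and 3 higher, with a median log2 ratio of -1.52. Of all listed root genes 59.6% were lower. This grouping was made after the values had been seen. All but Ma05_g16170 and Ma04_g19240 are also among the 27 root members of families known to carry leucine-rich repeats. The counts of these groups are therefore not separate results. Summed over the group, fragments were 2.18-fold lower (interval 2.04 to 2.32). The most abundant, At1g48480 (Ma07_g10960), was at 87.6 and 32.9 FPKM, 2.66-fold lower (interval 2.32 to 3.06). A pair of genes matched to At5g67200 had larger ratios. Ma10_g10000 was at 16.9 and 1.62 FPKM, 10.4-fold lower (interval 6.03 to 19.5), and Ma04_g09870 was at 24.4 and 3.59 FPKM, 6.81-fold lower (interval 4.66 to 10.3). An At4g23740 gene (Ma05_g06590) was at 37.7 and 18.2 FPKM, 2.07-fold lower (interval 1.70 to 2.52). In leaf the 2 genes of this kind were higher, in a table where 67.4% of all listed genes were higher. One was RLK902 (Ma10_g25940), at 11.4 and 25 FPKM, 2.20-fold (interval 1.72 to 2.84).

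TMK1 of Arabidopsis acts in auxin responses at the cell surface. Of the 6 root genes of that name 5 were lower, in a table where 59.6% of all listed genes were lower. Ma06_g12790 was at 27.6 and 13.2 FPKM, 2.10-fold lower (interval 1.74 to 2.54). The exception, Ma09_g30230, was at 28.3 and 68.1 FPKM, 2.41-fold higher (interval 2.13 to 2.74). Both genes named for the BRI1-associated kinase, a co-receptor of the brassinosteroid receptor, were lower. The 4 HSL1 genes, named after a relative of the abscission receptor HAESA, had 2 higher and 2 lower.

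Many root members are named only by an Arabidopsis locus. Of these 38 genes 25 were lower and 13 higher, a split near that of the whole root table, in which 59.6% were lower. They include the 17 inactive kinases above. Ma11_g02710, matched to At5g24010, had the highest level of any root member in low potassium. It was at 70.0 and 163 FPKM, 2.33-fold higher (interval 2.14 to 2.54), from counts that are not whole. Ma05_g28300, matched to At1g11050, was at 24.8 and 69.2 FPKM, 2.79-fold higher (interval 2.38 to 3.29). Ma05_g21310, matched to At5g57670, was at 12.6 and 45.7 FPKM, 3.62-fold higher (interval 2.99 to 4.40). The largest ratio among higher root members was that of Ma10_g15400, matched to At1g78530, at 1.27 and 14.1 FPKM, 11.1-fold higher (interval 4.82 to 31.3 from 6 fragments in normal potassium).

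In leaf 6 of the 8 genes named by a locus were lower, against 32.6% of all listed leaf genes. A pair with consecutive identifiers, both matched to At4g00960, was among them. The counts of both genes are not whole, so the values of the single copies are uncertain. Ma08_g03560 was at 11 and 1.78 FPKM, 6.18-fold lower (interval 3.56 to 11.5), and Ma08_g03550 at 15.1 and 5.31 FPKM, 2.84-fold lower (interval 2.01 to 4.08). A gene matched to At3g47110 (Ma06_g35650) was at 4.41 and 0.53 FPKM, 8.32-fold lower (interval 2.54 to 43.1 from 3 fragments in low potassium).

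Members listed in both tissues numbered 8, which is 21.1% of the leaf members and 8.42% of the root members. For all listed genes these shares were 34.7% and 8.64%. Of the 8, 5 had the same direction in leaf and root. Of all 410 genes in both tables, 27.1% had opposite directions. The remaining 3 members differed in direction between tissues.

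TMK1 (Ma08_g31260) was nearly silent in normal-potassium leaf and abundant in normal-potassium root. It was at 0.25 and 4.12 FPKM in leaf, 16.5-fold higher (interval 5.32 to 82.7, with 3 fragments under normal supply). It was at 18.7 and 2.46 FPKM in root, 7.61-fold lower (interval 5.20 to 11.5). In low potassium the leaf level was thus above the root level, although levels set across tissues come from tables that may have been normalized separately. The BRI1-associated kinase gene (Ma02_g05100) was at 0.12 and 2.14 FPKM in leaf, 17.8-fold higher, with an interval of 2.82 to 743 because normal potassium had 1 fragment. In root it was at 18.2 and 7.31 FPKM, 2.50-fold lower (interval 1.86 to 3.39), and root stayed above leaf.

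The wall-associated kinase Ma01_g04500 showed the reverse order, at 1.97 and 0.11 FPKM in leaf and, as given above, higher in low-potassium root. In leaf it was 17.9-fold lower (interval 2.85 to 744 from 1 fragment in low potassium). Its counts are not whole in either tissue.

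**Figure D5:**
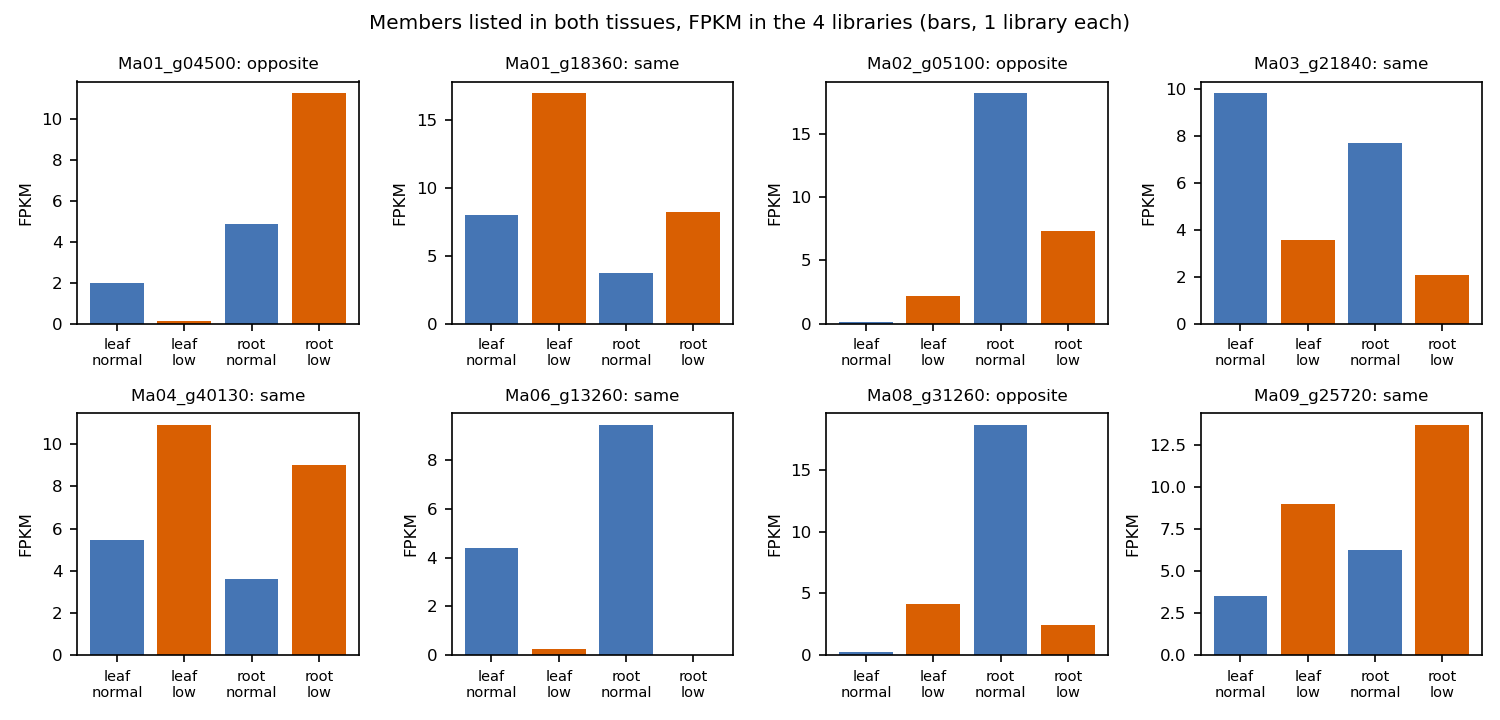
FPKM of the 8 members listed in both tissues, 1 bar per library, normal potassium in blue and low potassium in orange. The vertical axes start at 0 and differ between panels. Ma01_g04500, Ma02_g05100 and Ma08_g31260 change in opposite directions in leaf and root, while the other 5 change the same way.

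The other 5 members changed in the same direction in both tissues. At5g24010 (Ma01_g18360) was at 8.02 and 17.0 FPKM in leaf and 3.74 and 8.18 FPKM in root, 2.12-fold (interval 1.63 to 2.77) and 2.19-fold (interval 1.5 to 3.23) higher. SD1-8 (Ma04_g40130) was at 5.44 and 10.9 FPKM in leaf and 3.60 and 9.04 FPKM in root, 2.01-fold (interval 1.45 to 2.82) and 2.51-fold (interval 1.72 to 3.73) higher. The inactive kinase At5g67200 (Ma09_g25720) was at 3.53 and 8.97 FPKM in leaf and 6.23 and 13.7 FPKM in root, 2.54-fold and 2.20-fold higher. Each of these 3 genes was higher in both tissues.

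The At1g67000 gene (Ma03_g21840) was at 9.83 and 3.57 FPKM in leaf and 7.70 and 2.06 FPKM in root, 2.75-fold and 3.74-fold lower, with intervals of 1.75 to 4.44 in leaf and 2.13 to 6.93 in root. PERK10 (Ma06_g13260) was at 4.40 and 0.25 FPKM in leaf, 17.6-fold lower (interval 2.78 to 733 from 1 fragment in low potassium). In root, as given above, it had no fragment in low potassium. Both genes were thus lower in both tissues.

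Genes that act before and after these receptors were taken from a list of words. RALF peptides bind FERONIA-type receptors, and in Arabidopsis the RALF34 peptide is a ligand of THESEUS 1. The 1 listed gene, RALF-like 34 (Ma06_g08860), was lower in root, at 47.5 and 3.30 FPKM, 14.4-fold (interval 5.91 to 45.6). ROP switches and their exchange factors, which pass FERONIA signals to cell growth in Arabidopsis, were lower for all 4 listed in root, against 59.6% of all listed root genes. Exchange factor 7-like (Ma09_g03770) was at 10.7 and 2.73 FPKM, 3.93-fold lower (interval 2.39 to 6.76), and rac-like protein 2 (Ma09_g06140) was 3.99-fold lower. Both PBS1-like cytoplasmic kinases of root were lower, Ma06_g17040 2.02-fold and Ma11_g01290 3.78-fold. None of these 3 kinds was listed in leaf.

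Respiratory burst oxidases make the superoxide burst that follows receptor activation. In root 3 of the 6 listed were higher and 3 lower. The homolog B gene Ma06_g13290 was higher in both tissues, at 2.36 and 12.5 FPKM in leaf, 5.29-fold (interval 3.51 to 8.24), and at 35.2 and 134 FPKM in root, 3.80-fold (interval 3.42 to 4.24). MAP kinase cascades relay receptor signals to the nucleus. Their genes were higher for 7 of 7 listed in leaf and for 17 of 20 in root, where 67.4% and 40.4% of all listed genes were higher. MAP kinase 5 (Ma06_g34790) was the most abundant, at 93.9 and 759 FPKM in root, 8.08-fold higher (interval 7.33 to 8.93).

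Genes that mark other cells moved in the same libraries. In root the 33 listed histone and cyclin genes, which mark dividing cells, had 32 lower and 1 higher, and their summed level was 1590 and 583 FPKM. The 3 listed photosynthesis genes, which mark green tissue, were all higher in root, with summed levels of 16.7 and 81.2 FPKM. The 7 listed in leaf were all higher too, at 375 and 1037 FPKM in sum. The 4 histone and cyclin genes listed in leaf had 3 lower and 1 higher, at 154 and 98.9 FPKM in sum. Of all listed genes 59.6% were lower and 40.4% higher in root, and 32.6% were lower and 67.4% higher in leaf. The part of these marker genes in the changes of the receptor-like kinases was not tested. In these bulk samples fewer cells of a type and less RNA per cell cannot be told apart.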

How the data were processed

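Poly(A) RNA from a CTAB extraction was fragmented, primed with random hexamers and amplified by PCR, per the labels' protocols. These steps do not mark the strand, so reads of antisense genes cannot be told apart. The aligner, counter, genome build and the test behind the authors' deposited p-values were not given in the sources used here. The expression columns that the authors deposited hold estimated counts, and those of single copies of a family are uncertain where not whole within 0.001. The deposited FPKM values were scaled by the authors for length and library total and are 0.001 where the count is 0, which was read as 0. The deposited log2 ratio is that of the authors' FPKM columns. No listed gene of the authors' deposited tables had an FDR above 0.000995.

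Library totals were the slope of count over FPKM against gene length, for genes above 100 counts and 5 FPKM, keeping genes within 1% of the line. Intervals are exact (Clopper-Pearson) binomial intervals of the rounded counts at 95%, put on the scale of the FPKM ratio. For sums over genes they are on the scale of library totals. A sum pools genes that were listed because their own 2 values differ, so it describes those genes and is not a separate result. A count of 0 was replaced by a floor of 3 counts. PCR copies are not independent molecules, so intervals and floors cover counting error only. On simulated counts for 1177 leaf and 4744 root genes, 95.2% and 96.1% of intervals held the true fold. The simulation drew whole counts and did not keep genes by their ratio, as the authors' tables do. It therefore cannot show how often the intervals of listed genes hold the true fold. With 1 library per group no test was possible. Unlisted genes were not analysed here. The members, the name groups and the word lists were chosen with earlier results of these data known. Genes were named if listed in both tissues, among the 10 most abundant, among the 6 largest changes each way on the log2(FPKM + 1) scale in a tissue, or the most abundant of a group in each direction in root. Members named beyond this rule were chosen after their values were seen. Alternatives were a pseudocount of 1, counts in place of FPKM, leaving out genes under the table's median FPKM, whole counts only and a log2 limit of 2. Python 3.11.15, pandas 2.3.3, scipy 1.17.1 and matplotlib 3.10.9 were used.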

Additional observations from a re-analysis of the deposited data

Results flagged for a closer look

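The 3 genes below had opposite directions in leaf and root, and the difference between tissues was not tested. TMK1 (Ma08_g31260) had a log2 ratio (low against normal supply) of 4.04 in leaf and -2.93 in root. The BRI1-associated kinase gene (Ma02_g05100) had log2 ratios of 4.16 in leaf and -1.32 in root. The wall-associated kinase-like 16 gene (Ma01_g04500) had log2 ratios of -4.16 in leaf and 1.21 in root.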

How the results depend on the processing

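Without genes under the table's median FPKM, 7 members were lower and 11 higher in root (median log2 ratio 1.16 in place of -1.07), and 3 lower and 1 higher in leaf (median -1.05 in place of -2.22). Then 0 wall-associated kinases of leaf and 0 members of both tissues were left, and 1 in place of 5 of the 9 root groups of 3 or more genes had more lower than higher members. With whole counts only, 27 members were lower in root (median 1.06), and 6 were lower in leaf (median 1.04), of which 1 was a wall-associated kinase. With a log2 ratio of 2 or more in size, 21 members were lower and 11 higher in root (median -2.18), 3 were higher in leaf (median -3.10), 2 were in both tissues, and 2 root groups had more lower members. The next values come from alternatives chosen after seeing the data. Without families known to carry leucine-rich repeats, root had 30 lower members (median 1.10) and leaf 6 higher. Without wall-associated kinases, leaf had 14 lower (median -1.12). Each of these settings keeps only a part of the members, and that part need not be even by direction. Whole counts left out 22 of the 28 lower and 2 of the 10 higher leaf members. In root they left out 25 of the 52 lower and 14 of the 43 higher. No listed log2 ratio lies between -1 and 1, so a near-even split can turn the sign of a median. Causes of these changes were not tested. A pseudocount of 1 and counts in place of FPKM kept every count within 1.5 times, but the pseudocount moved the leaf median log2 ratio to -1.43. Of the 58 folds of named genes none reversed, and 5 became smaller past their interval or bound with the pseudocount. No paired analysis was possible because each group has 1 library. Depth limits the wall-associated kinases of leaf, which had at most 44.33 fragments in a library.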

Other observations

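Copies that share a name did not always share a direction. In root 21 names covered 2 or more members. The members of 12 of these names all went one way and those of 9 went both ways. Of all listed root genes 59.6% were lower and 40.4% higher, so names with only 2 genes can often go one way by accident. Whether copies of a name share a direction more often than other listed genes was not tested. All 4 genes matched to At4g23740 were lower and all 3 SD1-8 genes were higher. The 4 L-type lectin IX.1 genes had 2 higher and 2 lower. Members with consecutive identifiers went the same way within each tissue, in 5 of 5 pairs in leaf and 2 of 2 in root. All leaf pairs but Ma08_g03550 and Ma08_g03560 are wall-associated kinases, and both root pairs are G-type lectin kinases. Those groups went one way throughout, so the agreement of their pairs is not a separate result. The counts of Ma08_g03550 and Ma08_g03560 are not whole, so their values as single copies are uncertain. Across tissues a shared direction did not hold for the HSL1 genes with consecutive identifiers, Ma08_g28240, listed only in root, and Ma08_g28250, listed only in leaf. The first was 4.96-fold higher in root (interval 2.70 to 9.83) and the second 8.66-fold lower in leaf (interval 3.08 to 33.6). These genes were picked after their values were seen, and the counts of both are not whole.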
